A study of Mus musculus with 4 samples.

Results

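The genes described here are 40 genes of the endothelium, the cell layer that lines blood and lymph vessels. They were chosen by name as receptors, junction proteins, signalling proteins, transcription factors and coagulation proteins of that layer, and are followed through chromatin loops called in mouse granulosa cells before and after an ovulatory stimulus. A gene was placed at a loop when an annotated end of it lay within 2.5 kb of a loop anchor, on mouse build mm10. Of the 40 genes, 24 had a loop in at least 1 of the 4 libraries (60%, Wilson 95% interval 44.6% to 73.7%). Among all 21631 protein-coding genes of chromosomes 1 to 19 and X, 9139 had a loop (42.2%). Of the 40, 5 (Cd34, Calcrl, Thbd, Flt4 and Icam2) had been named earlier for loops in these lists. All 5 had a loop, so the 60% and its interval hold that choice and cannot be set against the 42.2%. The other 35 included 19 genes with a loop (54.3%), a share for which no interval was computed.

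The contacts came from Micro-C, which digests crosslinked chromatin with micrococcal nuclease and ligates fragments that lie together in the nucleus. All mice were 21 days old and were first given 5 IU of eCG, the equine chorionic gonadotropin that the group name PMSG refers to and that makes follicles grow. The PMSG group (2 libraries) was collected at 0 h of human chorionic gonadotropin (hCG), and the hCG group (2 libraries) at 6 h after 5 IU of hCG, which acts on the receptor of luteinizing hormone. The labels disagree on the eCG exposure, which is 46 h in one field and 44 h in the protocol. No label gives a strain or genotype, or states that a group's libraries were made from different animals, and p-values then measure only the spread between these libraries, which may be technical. The cells were released by puncturing ovaries, and the labels name no sort. A loop list holds no expression, so the share of endothelial cells in each library could not be checked. Fewer such cells and fewer contacts per cell cannot be told apart. The lists held 6533 to 8305 loops, with 272470 to 393852 contacts in total at the called pixels, the fewest in PMSG replicate 2 and the most in PMSG replicate 1. With loops matched over the lists by anchor midpoints at most 20 kb apart, there were 12920 distinct loops.

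Ovarian follicles grow without vessels inside the basement membrane that surrounds the granulosa cells, and the capillaries lie in the theca layer outside it. After the surge of luteinizing hormone those capillaries become leaky and sprout into the ruptured follicle to supply the corpus luteum. Vascular endothelial growth factor acts on receptor tyrosine kinases of the endothelium, and transcription factors of the ETS, GATA and TAL families keep endothelial genes active. A loop joins distant sites of a chromosome, often sites bound by CTCF and cohesin, or a promoter and an enhancer. A loop at a gene is a measurement of contact and not of its expression.

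The 24 genes carried 41 distinct loops, called 74 times over the 4 lists. A loop was present at 18 of the 40 genes in PMSG replicate 1, at 13 in PMSG replicate 2, at 14 in hCG replicate 1 and at 16 in hCG replicate 2. The groups overlapped: the PMSG mean was 15.5 ± 3.54 genes and the hCG mean 15.0 ± 1.41 (SD, n = 2 libraries each; exact two-sided permutation test, p = 1.0). With 2 libraries against 2, the smallest p that this test allows is 0.33. Without PMSG replicate 1 the hCG mean was higher by 2.0 genes, and without PMSG replicate 2 it differed by -3.0 genes. Without the 5 genes named earlier, the counts were 13 and 9 before hCG and 13 and 14 after it, so the sign turned (difference 2.5 genes; exact permutation test, p = 0.67). With each list cut to the length of the shortest, the loops of highest observed over expected being kept, the counts were 15 and 13 against 11 and 12, which did not overlap (difference -2.5 genes; exact permutation test, p = 0.33). These counts include the 5 genes named earlier for PMSG-only loops, and lists of equal length were not compared without them. The share of all genes with a loop in each list of equal length was not computed. Per 1000 loops of a list, loops at the endothelial genes numbered 2.89 and 2.30 before hCG and 2.09 and 2.39 after it. Those groups overlapped as well (difference of means, hCG minus PMSG, -0.352 per 1000; exact two-sided permutation test, n = 2 each, p = 0.67). Without PMSG replicate 1 this difference was -0.055 per 1000, and without the 5 genes named earlier it was 0.261 (exact permutation test, p = 0.67). In lists of equal length the values were 2.60 and 2.30 against 1.84 and 2.14, which did not overlap (difference -0.459; exact permutation test, p = 0.33). The 5 genes named earlier were in these values as well, so the separation cannot be told from their choice.

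**Figure D1:**
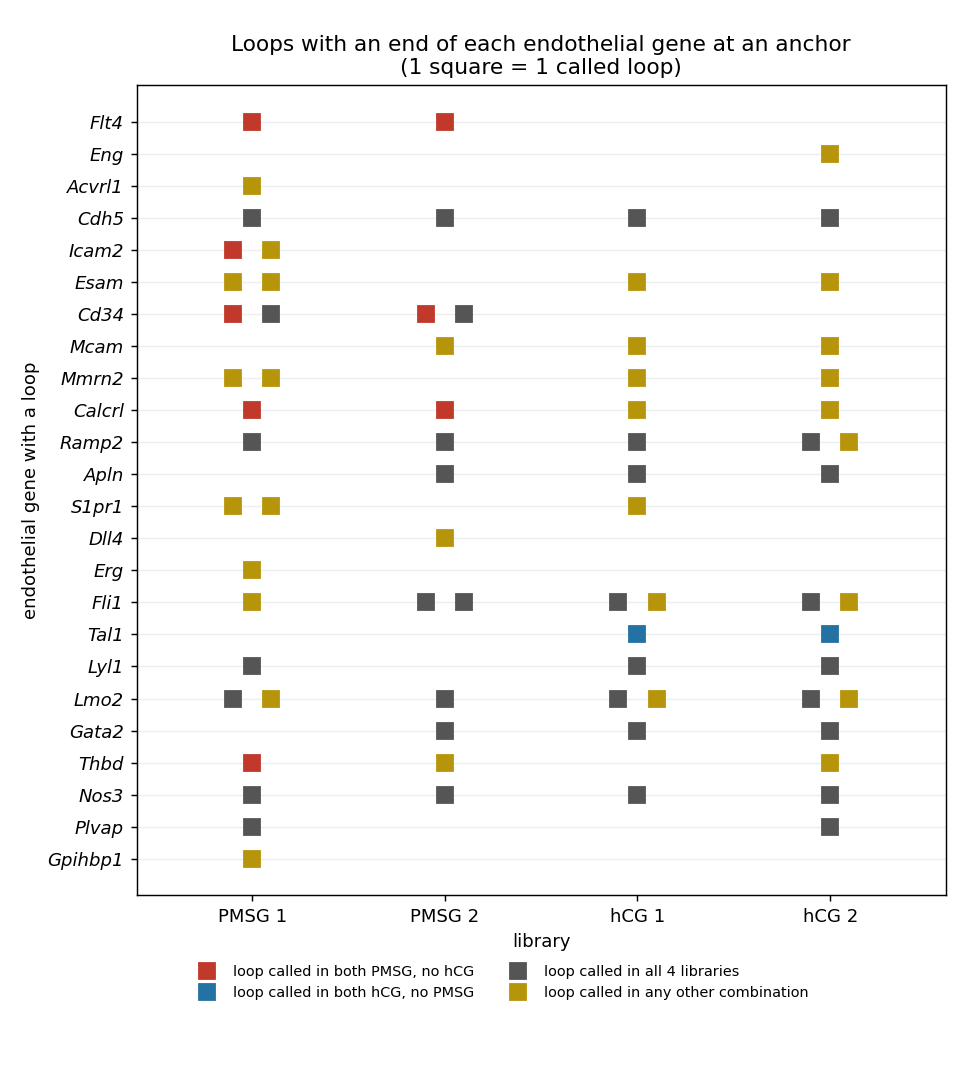
Each square is 1 called loop with an end of the gene on the y axis at an anchor, in the library on the x axis, coloured by the set of libraries in which the loop was called. Of the 24 genes, 6 have a square in all 4 libraries, and 6 (25%) have squares in 1 library alone. Over all 9139 genes with a loop, 2493 had one in all 4 libraries and 2898 (31.7%) in 1 library alone. Cd34 has no square in the hCG libraries because the hCG anchors of its loop of all 4 libraries fall inside the gene, away from its ends.

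The loops at endothelial genes had a median span, the distance between anchor midpoints, of 102 and 100 kb before hCG and of 130 and 110 kb after it. The groups did not overlap, with a difference of 18.8 kb at the smallest p possible (exact two-sided permutation test, n = 2 each, p = 0.33). Without the 5 genes named earlier the medians were 95 and 100 kb before hCG and 110 and 100 kb after it, so the groups overlapped (difference 7.5 kb; exact permutation test, p = 0.67). With every false discovery rate (FDR) at most 0.01 they were 110 and 100 kb against 150 and 110 kb, which touch (exact permutation test, p = 0.67). Over all loops with a gene end, the medians were 160 and 170 kb before hCG and 130 and 145 kb after it. Among loops called in 5 kb bins, the difference at the endothelial genes had the opposite sign (-12.5 kb). Without hCG replicate 1 it was 8.75 kb over all bins, and without hCG replicate 2 it was 28.8 kb.

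Loops were then sorted by the libraries that held them. A PMSG-only loop was called in both PMSG libraries and in neither hCG library, an hCG-only loop the reverse, and a loop of all 4 libraries in each list. PMSG-only loops lay at 5 of the 24 endothelial genes with a loop (20.8%, Wilson 95% interval 9.24% to 40.5%), and at 499 of the 9139 genes with a loop (5.46%). These 5 are the genes that had been named earlier from such loops, so their count supports nothing beyond the choice. Among the other 19 endothelial genes with a loop, 0 were at a PMSG-only loop. An hCG-only loop lay at 1 of the 24 (4.17%, Wilson 95% interval 0.739% to 20.2%), Tal1, against 759 of 9139 genes (8.31%). A loop of all 4 libraries lay at 10 of the 24 (41.7%, Wilson 95% interval 24.5% to 61.2%), against 3818 of 9139 genes (41.8%), a share near the background. The class counts moved when a library was left out. With PMSG replicate 2 left out, 11 of 23 endothelial genes had a loop in PMSG replicate 1 and no hCG library, against 25.1% of all genes with a loop. All 5 genes named earlier are among these 11, so this share too holds the choice. With hCG replicate 1 left out, 7 of 24 had a loop in hCG replicate 2 and no PMSG library, against 25.7%, and with hCG replicate 2 left out 3 of 23 had one in hCG replicate 1, against 24.7%. At an hCG-only loop were 2 of 20 without PMSG replicate 1, against 21.5% of all genes with a loop, and 2 of 23 without PMSG replicate 2, against 11.4%.

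**Figure D2:**
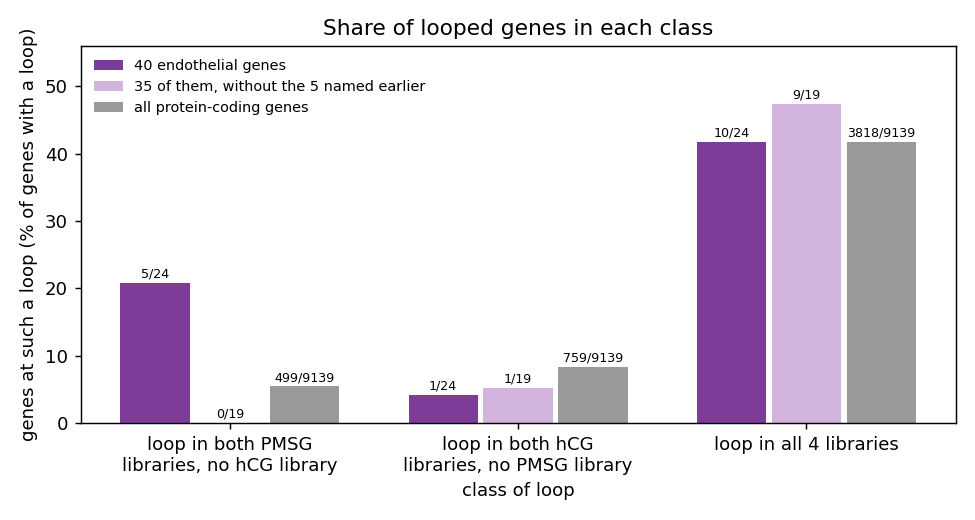
Bars give the percent of genes with a loop that lie at a loop of each class, for the 40 endothelial genes, for the 35 of them not named earlier and for all protein-coding genes. Counts over genes with a loop stand above the bars. The PMSG-only bar of the endothelial genes consists of the 5 genes named earlier, and the bar of loops of all 4 libraries (10/24) stands at the height of that of all genes.

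Of the 11 genes with a loop and a RefSeq start, 6 had the gene end at their start at an anchor: Cd34, Tal1, Lyl1, Calcrl, Gata2 and Mcam. An inner RefSeq start of Erg, away from the ends of the gene, was also at an anchor, in PMSG replicate 1 and hCG replicate 1. The promoters of Cd34, Tal1 and Lyl1 are shown. The Tal1 start lay at its hCG-only loop. That of Lyl1, a relative of Tal1, lay at its loop of all 4 libraries in PMSG replicate 1 and hCG replicate 2. The Cd34 start was met in PMSG replicate 1 alone, by a 50 kb call in 10 kb bins (104 contacts against 32.2). Matching within 20 kb joined this call to the Cd34 loop of all 4 libraries, whose other calls did not meet the start. The PMSG-only loop of Cd34 met the far end of the gene, not its promoter. Each run gives the bases before a RefSeq start on GRCm38.p6 that lie outside the annotated gene, on the strand of the gene. Capitals mark the ETS core GGAA, or TTCC on the opposite strand, and the GATA core AGATAA, or TTATCT. The positions are chr1:194938571-194938820 (plus strand, 250 bases) for Cd34, chr4:115056176-115056425 (plus strand, 250 bases) for Tal1 and chr8:84701207-84701422 (plus strand, 216 bases) for Lyl1.
Cd34: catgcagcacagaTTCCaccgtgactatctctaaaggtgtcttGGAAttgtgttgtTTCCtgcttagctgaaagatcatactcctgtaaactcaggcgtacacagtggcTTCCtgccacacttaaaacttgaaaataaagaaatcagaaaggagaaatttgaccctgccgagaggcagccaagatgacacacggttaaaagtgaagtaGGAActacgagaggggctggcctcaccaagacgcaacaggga
Tal1: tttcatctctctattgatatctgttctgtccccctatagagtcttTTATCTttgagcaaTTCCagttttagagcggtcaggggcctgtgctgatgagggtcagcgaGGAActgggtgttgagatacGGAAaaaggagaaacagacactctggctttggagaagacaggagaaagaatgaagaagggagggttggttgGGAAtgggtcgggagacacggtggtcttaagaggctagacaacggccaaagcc
Lyl1: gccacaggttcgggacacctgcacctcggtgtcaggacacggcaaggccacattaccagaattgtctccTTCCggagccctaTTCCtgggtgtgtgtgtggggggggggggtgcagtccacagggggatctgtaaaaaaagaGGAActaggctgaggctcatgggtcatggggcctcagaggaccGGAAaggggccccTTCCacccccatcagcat
The Cd34 and Lyl1 runs held 5 ETS cores each, and the Tal1 run held 4 ETS cores and 1 GATA core. Over the 250 bases before all 32851 RefSeq starts of the table, 93.4% held an ETS core, with a mean of 2.91, and 9.99% held a GATA core. Among starts at an anchor whose runs are not shown, Mcam had 1 ETS core and the Gata2 starts had 3 and 1. The inner Erg start had 2 ETS cores and 1 GATA core. The second Tal1 start had 3 ETS cores and 0 GATA cores. The E-box CANNTG, found in 66.2% of all promoters, was in the Lyl1 run once and in neither the Cd34 nor the Tal1 run shown. The CTCF core motif, found in 1.17%, was in none of the 3 runs. At Calcrl the 250 bases held 3 ETS cores, of which 1 was part of the FOX-ETS composite AACAGGAA (TTCCTGTT on the opposite strand), a motif found in 2.25% of promoters. There the annotated gene covers 139 of the 250 bases, so the run is not shown. A match is a description of letters and does not show that a factor binds.

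Calcrl, the receptor for adrenomedullin when joined to RAMP2, had an anchor at its start in each of the 4 libraries, and the partner of that anchor differed between the groups. In PMSG replicate 1 the start at chr2:84425001-84430000 met chr2:84060001-84065000, at 365 kb, with 18 contacts where 2.65 were expected from the surrounding donut of pixels. In PMSG replicate 2 the same sites were called in 10 kb bins at 360 kb, with 38 contacts against 9.69. No annotated gene end lay at the far anchor. In hCG replicate 1 the start was instead called with a site 175 kb away (69 contacts against 34.3), and in hCG replicate 2 with one 625 kb away, at the ends of Itgav and Fam171b (42 against 15.8). Both hCG loops were in 25 kb bins, in which the gene's anchor also held the end of Tfpi, the gene of a coagulation inhibitor. The partners of the hCG libraries thus differed from each other as well as from those of the PMSG libraries. With every FDR required to be at most 0.01, the PMSG-only call was lost, since PMSG replicate 2 had 0.033.

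Cd34 encodes a sialomucin of the endothelial and haematopoietic cell surface. Its far end was at the anchor of a PMSG-only loop of 125 kb. PMSG replicate 1 had 25 contacts against 4.94 expected in 5 kb bins (chr1:194835001-194840000 to chr1:194960001-194965000), and PMSG replicate 2 had 197 against 65.2 in 25 kb bins. A shorter loop of 70 to 75 kb was called at the gene in all 4 libraries, with 35 and 33 contacts in 5 kb bins before hCG and 37 and 36 after it. These calls met an end of the gene, the far one, in PMSG replicate 2 alone. A 50 kb call in 10 kb bins in PMSG replicate 1 (104 against 32.2), matched to this loop, met the gene's start. Observed over expected was 6.91 and 8.38 before hCG and 8.58 and 7.49 after it, so the groups overlapped. Its outer anchor lay 45 kb from that of the PMSG-only loop, and matching within 50 kb joined the loops and ended the PMSG-only call. Over all PMSG-only loops, 24.2% had a loop of an hCG library within 50 kb, and the median distance was 122 kb.

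Thbd, thrombomodulin, which turns thrombin to the anticoagulant protein C pathway, had a PMSG-only loop of 280 kb in PMSG replicate 1 (20 contacts against 5.82) and of 270 kb in PMSG replicate 2 (20 against 4.19). The outer anchor was chr2:148120001-148130000 in both. The largest FDR was 0.085 in PMSG replicate 1, near the limit of 0.1 of the lists, and 0.009 in PMSG replicate 2. With every FDR at most 0.01 the PMSG-only call was lost. The gene's ends were at the inner anchor in PMSG replicate 1 alone, and in PMSG replicate 2 that anchor held the end of Sstr4. Thbd also had a loop to the other side of 150 kb in PMSG replicate 2 (62 against 29.8) and of 175 kb in hCG replicate 2 (68 against 29.2). No loop was called at it in hCG replicate 1.

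Flt4, the receptor of the lymphatic growth factors VEGF-C and VEGF-D, had its far end at a PMSG-only loop of 50 kb, chr11:49650001-49660000 to chr11:49700001-49710000. The same pixel was called in both PMSG libraries, with 65 contacts against 28.8 and with 41 against 12.9, an observed over expected of 2.25 and 3.17. The nearest loops of the hCG libraries had an anchor at least 110 kb from the matching anchor of this loop. Icam2, an adhesion protein that binds leukocyte integrins, had the PMSG-only loop that held in the fewest other settings. Its 60 kb loops in PMSG replicate 1 (50 against 26.1) and PMSG replicate 2 (39 against 10.4) had anchors 20 kb apart, at the limit of matching. The gene lay at an anchor in PMSG replicate 1 alone, where the largest FDR was 0.038. A loop of 250 kb was called at Icam2 in PMSG replicate 1 only (163 against 64.3). Of 9 other ways of matching loops, thinning the lists or placing genes, the PMSG-only call held in 8 for Cd34, Calcrl and Flt4, in 6 for Thbd and in 4 for Icam2.

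**Figure D3:**
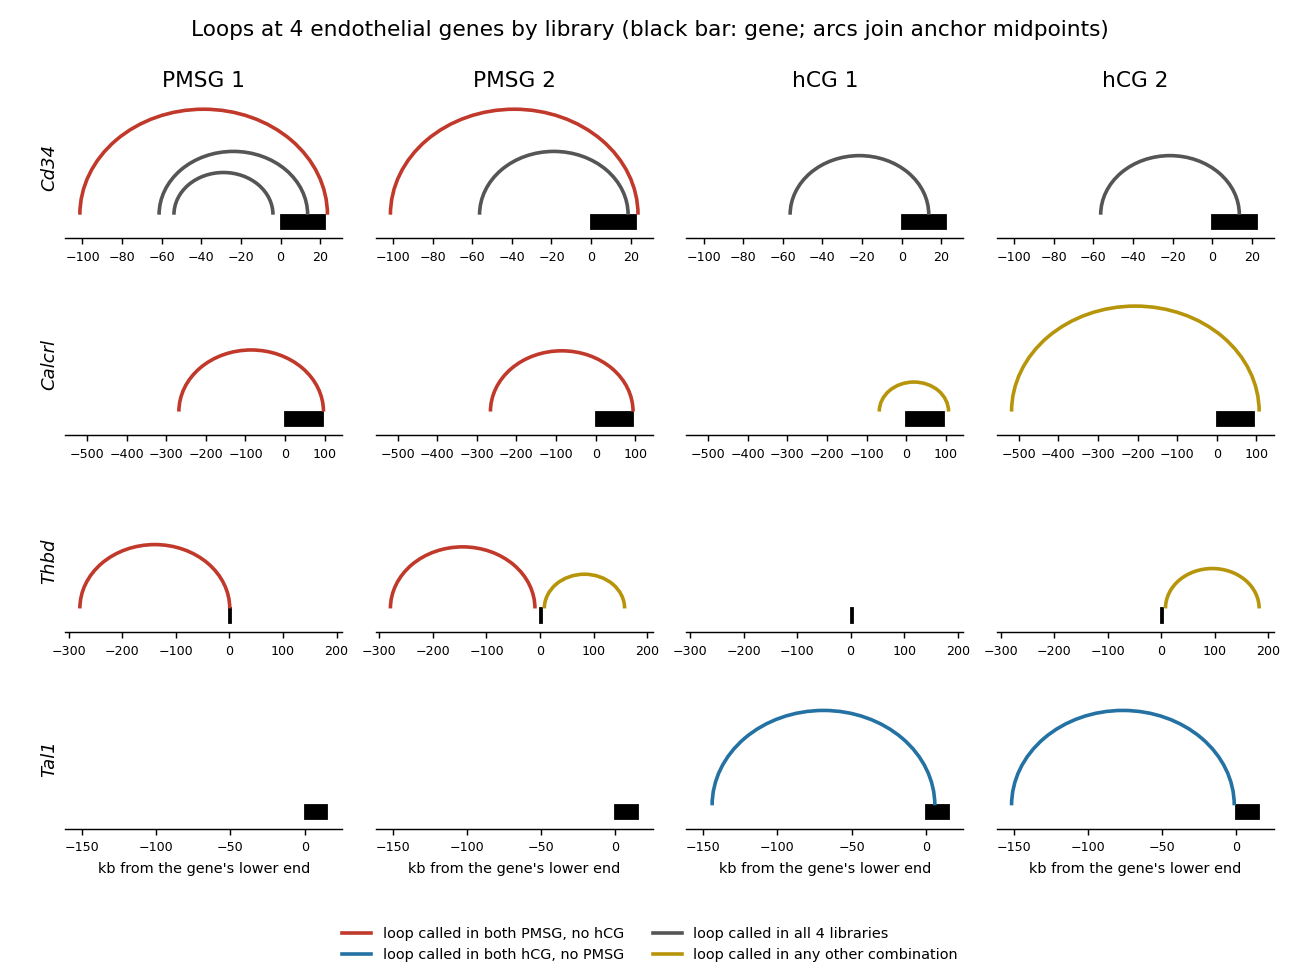
Arcs join the anchor midpoints of each loop called at Cd34, Calcrl, Thbd and Tal1 in each library, with distance in kb from the gene's lower end and the gene as a black bar. For Cd34 the outer PMSG-only arc is missing in the hCG libraries while the inner arc is present in all 4. PMSG replicate 1 has a further Cd34 arc of 50 kb, matched to the inner one. For Calcrl the arc at the gene's higher end changes its partner between libraries, and for Tal1 arcs are present in the hCG libraries alone.

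Tal1, a basic helix-loop-helix factor that drives blood and endothelial development, had the hCG-only loop. It joined the gene to a site 150 kb away, at the ends of the forkhead genes Foxd2 and Foxe3 in 25 kb bins and of Foxd2 in 10 kb bins. In hCG replicate 1 the pixel had 59 contacts against 21.9 (25 kb bins, chr4:114900001-114925000 to chr4:115050001-115075000), and in hCG replicate 2 it had 26 against 4.28 (10 kb bins). Observed over expected was 2.69 (95% Poisson interval 2.05 to 3.47) and 6.08 (3.97 to 8.91), values of different bin sizes that are not comparable. No loop was called at Tal1 in the PMSG libraries, whose nearest loops had an anchor 242.5 to 250 kb from the matching one. Whether contacts below the caller's limits were present there is not given by the lists. The call held in all 9 other settings of matching, lists and gene placement. The median distance from an hCG-only loop to a loop of a PMSG library was 90 kb over all 652 such loops.

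Loops of all 4 libraries lay at 10 endothelial genes, and 4 of these loops could be compared in strength because each library called them in bins of the same size. The strongest was at Lmo2, the adaptor that bridges TAL1 and GATA factors. Its 110 kb loop, chr2:103870001-103875000 to chr2:103980001-103985000, had the same 5 kb pixel in each library, with 45 and 43 contacts before hCG and 31 and 31 after it. Observed over expected was 8.42 and 11.7 before hCG and 10.4 and 8.08 after it, so the groups overlapped. The fitted log2 difference, hCG minus PMSG, was -0.10 (edgeR quasi-likelihood test over 1366 loops, adjusted p = 0.954). Without PMSG replicate 2 it was 0.11 and without hCG replicate 2 it was 0.08, so it has no settled direction.

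Cdh5, VE-cadherin, the adhesion protein of endothelial junctions, had a loop of 70 to 75 kb to a site at the end of Bean1. It had 36 and 19 contacts before hCG and 30 and 27 after it, with observed over expected at 6.59 and 5.84 and at 8.40 and 5.57. The log2 difference was 0.10 (edgeR, adjusted p = 0.958). Ramp2, the partner of CALCRL, had a loop of 35 to 40 kb with observed over expected at 4.38 and 5.87 before hCG and 5.13 and 4.40 after it (log2 difference -0.04, edgeR, adjusted p = 0.992). That anchor also held the end of Vps25. For the inner Cd34 loop the log2 difference was 0.08 (edgeR, adjusted p = 0.967). The 4 groups of values overlapped between PMSG and hCG, and the sign of each difference turned when some single library was left out. Of the 1366 loops that could be fitted over the genome, edgeR called 0 changed (0% at an adjusted p under 0.05). The median log2 difference over these loops was 0.15, and it was -0.003 with TMM scaling in place of the local expectation. An unadjusted p under 0.05 was reached by 91, and DESeq2 called 0, with 5 at an unadjusted p under 0.05. Without PMSG replicate 2, edgeR called 12 of the 1366, and with either hCG library left out it called 2. In each of these fits a group has 1 library, which is assumed to vary like the other group.

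**Figure D4:**
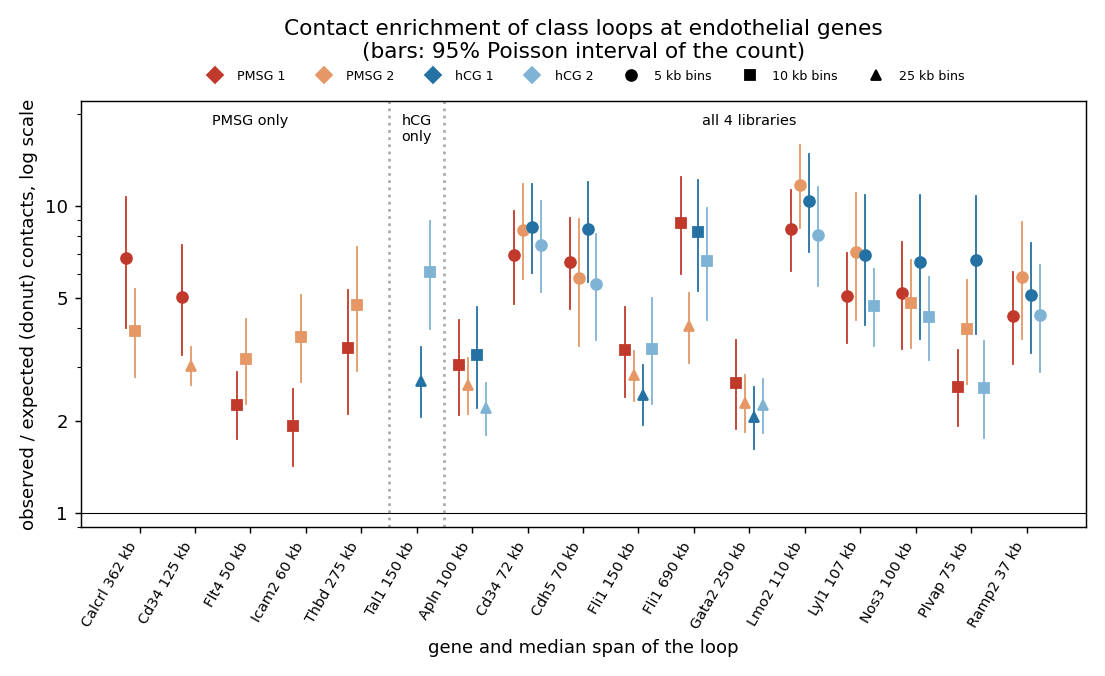
Observed over expected (donut) contacts on a log scale, for each PMSG-only loop, hCG-only loop and loop of all 4 libraries at an endothelial gene, with 95% Poisson intervals of the count. Colours are libraries and marker shapes are bin sizes; where a library called a loop in several bins the smallest is drawn. Lmo2 stands highest, at 8.08 to 11.7, and Icam2 in PMSG replicate 1 lowest, at 1.92.

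The other 6 genes at loops of all 4 libraries had those loops called in unlike bins, so their strengths were not tested. At Lyl1 the loop of 100 to 110 kb met a site at Dand5, with observed over expected from 4.72 to 7.07. Its anchor also held the ends of Nfix and Trmt1, so the gene behind the loop is uncertain. At Nos3, the endothelial nitric oxide synthase, the loop of 95 to 100 kb had a ratio from 4.36 to 6.59 and met a site with no gene end. Fli1, an ETS factor, had 4 distinct loops, the most of the 40 genes, each placed by its lower end. Its loops of 150 kb and of 675 to 690 kb were in all 4 libraries. The shorter one missed the end of Fli1 in PMSG replicate 1, where its 10 kb anchor held the end of Kcnj1. The longer one met the end of Fli1 in PMSG replicate 2 alone, in 25 kb bins (60 contacts against 14.8). In the other 3 libraries its 10 kb anchor held the end of the neighbour Kcnj1 and not of Fli1, with ratios of 6.62 to 8.78. Gata2, which controls blood and endothelial genes, had a loop of 250 kb with ratios of 2.06 to 2.66 and Eefsec at its far side in 25 kb bins. Apln, the apelin ligand of endothelial tip cells, had one of 100 to 110 kb (2.20 to 3.26), and Plvap, which forms the diaphragms of fenestrated capillaries, had one of 70 to 80 kb (2.56 to 6.68). Plvap shared its anchor with Ccdc194. These ranges run over all libraries with the loop, although the gene's own end was at the anchor in 3 of them for Lyl1, Gata2 and Apln and in 2 for Plvap.

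By role the counts were as follows, with no test between the roles. Of the 7 transcription factors 6 had a loop (85.7%, against 42.2% of all genes). At a loop of all 4 libraries were 4 (66.7%, against 41.8% of all genes with a loop): Fli1, Gata2, Lmo2 and Lyl1. Erg had a single loop of 610 kb, in PMSG replicate 1 (22 contacts against 3.70), and Ets1 had none. Of the 7 genes of peptide, lipid and Notch signalling 5 had a loop (71.4%). S1pr1, the sphingosine 1-phosphate receptor that tightens junctions, had one of 175 kb in PMSG replicate 1 and hCG replicate 1 and one of 80 kb in PMSG replicate 1. Dll4, the Notch ligand of tip cells, was at an anchor in PMSG replicate 2 alone (50 against 13.7). Of the 7 genes of coagulation, vessel function and secreted proteins 4 had a loop (57.1%), and Gpihbp1, which carries lipoprotein lipase to the capillary surface, had its loop in PMSG replicate 1 alone.

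Of the 12 junction and surface genes 6 had a loop (50%). Mcam, the adhesion protein CD146, had a loop of 90 to 100 kb in every library except PMSG replicate 1, with an anchor shared with Cbl. Esam, a tight junction adhesion protein, had 3 distinct loops, and Mmrn2, a matrix protein that binds CLEC14A, had 3 as well. All anchors of these 3 genes also held ends of other genes. Of the 7 receptors 3 had a loop (42.9%, the share of all genes being 42.2%). Eng, the TGF-beta co-receptor endoglin, was at an anchor in hCG replicate 2 alone (52 against 18.0), together with Fpgs. Acvrl1, the ALK1 kinase with which it acts, was at one in PMSG replicate 1 alone (27 against 6.40). Over the 24 genes, 17 had at least 1 anchor with no other gene's end, and 7 (Eng, Esam, Lyl1, Mcam, Mmrn2, Plvap and Ramp2) shared each of theirs. The same share over all genes was not computed, so these counts are a description.

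No gene end at an anchor was found for 16 of the 40 genes: Flt1, Kdr, Tek, Tie1, Pecam1, Cldn5, Emcn, Ptprb, Clec14a, Robo4, Aplnr, Rasip1, Ets1, Vwf, Egfl7 and Esm1. Receptors that mark endothelium are among them, the VEGF receptors Flt1 and Kdr and the angiopoietin receptor Tek. The nearest anchor of any library lay at a median of 22.8 kb from their ends, from 4.21 kb at Pecam1 to 125 kb at Tek. Over all genes without a loop the median was 35.5 kb. Just outside the 2.5 kb limit were Pecam1 (4.21 kb), Emcn (6.07 kb) and Aplnr (6.36 kb), and the farthest inside it was Cdh5 (0.497 kb).

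**Figure D5:**
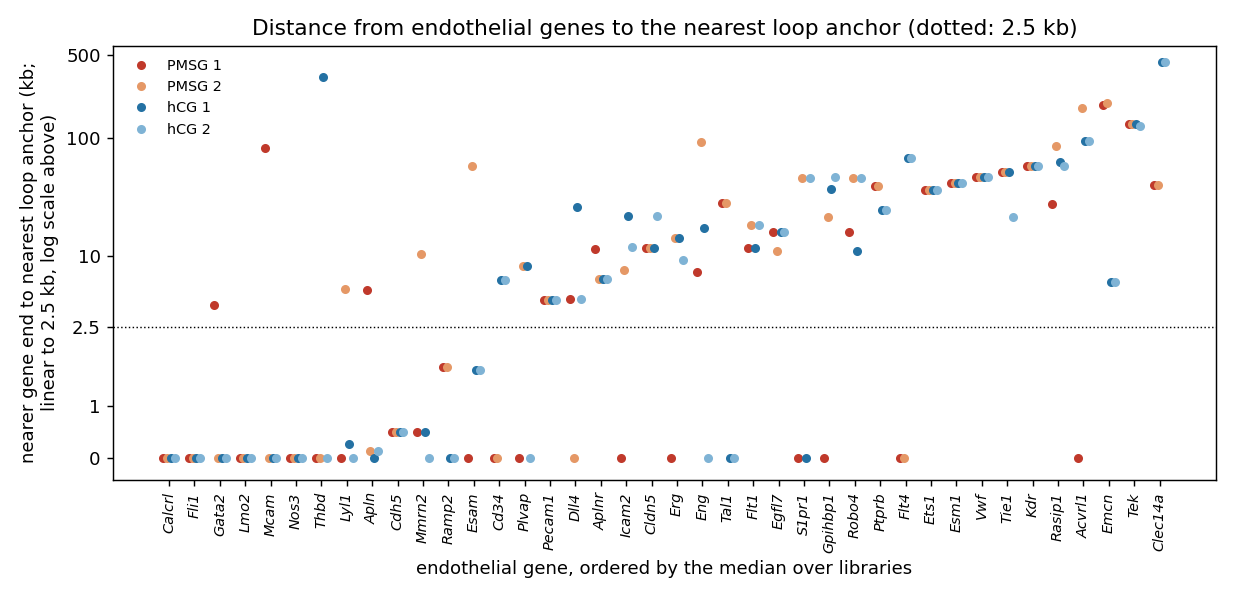
Distance in kb from the nearer end of each of the 40 endothelial genes to the nearest loop anchor in each library, linear up to the 2.5 kb limit (dotted line) and on a log scale above it. Genes are ordered by their median over libraries. At Pecam1, Kdr, Ets1 and Vwf the 4 libraries give the same distance, while at Mcam 1 library stands apart from the other 3.

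Of those 16 genes, 5 had an anchor inside the gene, away from its ends, and the share over all genes without a loop was not computed. Vwf, von Willebrand factor, had a loop of all 4 libraries of 175 to 190 kb with observed over expected of 6.53 and 8.96 before hCG and 9.34 and 10.9 after it. These values mix bins of 5 and 10 kb, so the order was not tested. Ptprb, the phosphatase VE-PTP that acts on TIE2 and VE-cadherin, had 3 loops of all 4 libraries with 1 anchor inside the gene and the other outside it. The strongest, of 110 to 115 kb in 5 kb bins, had ratios of 7.26 and 11.1 before hCG and 9.58 and 10.2 after it, which overlap (edgeR, adjusted p = 0.933). Ptprb also had an hCG-only loop of 225 kb (44 contacts against 16.7 and 54 against 23.2). Flt1 had a loop of all 4 libraries of 250 to 270 kb from within the gene (2.67 to 5.31).

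Pecam1, the junction protein CD31, had an hCG-only loop of 50 kb from within the gene, with 41 contacts against 19.8 in hCG replicate 1 and 52 against 26.8 in hCG replicate 2. Its largest FDR values, 0.078 and 0.057, were near the limit of 0.1 that all loops of the lists met. Emcn, the endothelial sialomucin endomucin, had one of 1525 kb to the end of Slc39a8, called in the same 25 kb pixel with 37 contacts against 9.44 and 45 against 10.2. With any part of a gene counted instead of its ends, 4 endothelial genes were at an hCG-only loop (Emcn, Pecam1, Ptprb and Tal1) of 28 with a loop, against 9.17% of all genes. The PMSG-only count remained 5 under that placement, and these were the genes named earlier.

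Several of the 16 lay inside a loop rather than at its anchor. Kdr, the main receptor of VEGF-A, was enclosed in all 4 libraries by a loop of 250 to 255 kb, with 15 and 13 contacts before hCG (observed over expected 7.20 and 7.44) and 22 and 18 after it (12.4 and 9.10). The groups did not overlap, but the log2 difference of 0.54 did not pass the test (edgeR over the 1366 loops, adjusted p = 0.798). The median log2 difference over those loops was 0.15. How many of those loops had groups that did not overlap was not computed. Pecam1 lay in a loop of 95 kb with the same pixel in each library (6.12 and 11.0, then 8.56 and 7.22; edgeR, adjusted p = 0.984). Aplnr, the apelin receptor, lay in one of 120 to 125 kb (7.85 and 6.92, then 8.96 and 8.13; edgeR, adjusted p = 0.916). There too the groups did not overlap. Ets1, Esm1 and Cldn5 were enclosed in all 4 libraries as well. The groups did not overlap at Ets1 (3.83 and 4.35, then 6.32 and 4.79; edgeR, adjusted p = 0.803). Nor did they at Esm1 (4.39 and 4.33, then 6.66 and 5.23; edgeR, adjusted p = 0.781). A loop enclosed the gene in all 4 libraries for 16 of the 40 endothelial genes (40%), and for 19.3% of all genes.

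Other genes of vessel signalling were set beside the 40. Of 46 ligands, co-receptors, Notch and ETS pathway genes and further endothelial genes, 28 had a loop (60.9%), 0 of them PMSG-only and 16 (57.1%) at a loop of all 4 libraries. Vegfa, the ligand of Kdr, and Adm, the ligand of the Calcrl and Ramp2 receptor, were at loops in each of the 4 libraries. The hCG-only loops of this list lay at 2 genes, the Notch ligand Jag1 and the arterial ephrin Efnb2. Of 20 granulosa genes 18 had a loop (90%), with 4 at PMSG-only and 4 at hCG-only loops (22.2% each of those with a loop). Of 10 pericyte and smooth muscle genes 6 had a loop, of which 1 was at a PMSG-only loop (Acta2). Of 10 leukocyte genes 5 had a loop, of which 1 was at a PMSG-only loop (Lyz2). Of all protein-coding genes 42.2% had a loop. Among all genes with a loop 5.46% were at a PMSG-only loop, 8.31% at an hCG-only loop and 41.8% at a loop of all 4 libraries. Each of the list counts is a description of a list chosen by name. The part of other cell types in the loops at endothelial genes was not tested.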

How the data were processed

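Micro-C loop lists of 4 libraries were used, 2 labelled PMSG and 2 labelled hCG by their titles. Libraries were made with a Dovetail Micro-C kit, with 2 or 3 technical replicates for a sample that the lists do not give apart, per the labels' protocols. BWA and Juicer were used on mm10, per the submitters' processing notes. The loops were called and merged over bins of 5, 10 and 25 kb by juicer_tools 1.22.01, per the file headers. Other versions and settings were not given in the sources used here. Per the file headers the deposited observed value is a count of contacts in a loop's pixel, not normalized. The deposited expected signal of the same pixel comes from 4 local neighbourhoods, per the file headers, and the one called donut is used here. The FDR of each comparison is deposited as a q-value, and the largest in the lists was 0.0994. A score, the number of pixels merged into a loop, is also deposited and entered no comparison. Since each library was called apart, a deeper library can pass more loops.

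Connected sets of loops with both anchor midpoints within 20 kb formed distinct loops, of which 3.65% were wider than 20 kb. Gene ends came from RefSeq protein-coding genes on GRCm38.p6, and a gene counted at a loop if its end met the anchor in at least 1 library. Promoters came from RefSeq (GRCm38.p6), where 22 of the 40 genes had an entry, and for the other 18 the ends are called lower and higher. Strength was tested with edgeR 4.0.16 in R 4.3.3 (quasi-likelihood) on the counts, with the log donut expectation as offset and a Benjamini-Hochberg threshold of 0.05. DESeq2 1.42.0 was an alternative. Contact intervals are Poisson and shares have Wilson intervals, each at 95%, and cover counting error only. Other steps used Python 3.11.15, numpy 2.4.6, pandas 2.3.3, scipy 1.17.1 and matplotlib 3.10.9. The genes and lists were chosen with earlier results of these data known. Named genes are every member at a PMSG-only or hCG-only loop, the 10 with a loop of all 4 libraries, the gene with most loops and every gene without one, with others named by role. The Vwf, Ptprb, Flt1, Emcn, Kdr, Aplnr, Ets1, Esm1 and Pecam1 loops away from gene ends were described after their values were seen.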

Additional observations from a re-analysis of the deposited data

How the results depend on the processing

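The planned placement by transcription start alone was not run, since only 22 of the 40 genes had a start in the promoter table. At loops of all 4 libraries the count of 10 was 5 when anchors had to overlap (20.8% of endothelial genes with a loop against 18.9% of all genes). It was 6 with every FDR at most 0.01 (27.3% against 25.9%). It was 4 when the gene end had to be at the anchor in each library (22.2% against 24.8%). With a library left out it ranged from 10 to 11 (43.5% to 55%, against 45.7% to 50.5% of all genes). The PMSG-only count of 5 was 3 with that FDR limit (13.6% against 6.11%) and 3 with the gene end required in each library (16.7% against 5.24%). It was 0 without the genes named earlier (0% against 5.46%). With the FDR limit the 3 were Cd34, Flt4 and Dll4, and with the gene end required they were Calcrl, Cd34 and Flt4. All of these but Dll4 were named earlier for such loops, so the shares rest on that choice. With a library left out the PMSG-only count was 4 to 11. Without PMSG replicate 1 the share was 20% against 15.6%, and without PMSG replicate 2 it was 47.8% against 25.1%. Without hCG replicate 1 it was 20.8% against 10.2%, and without hCG replicate 2 it was 26.1% against 11.3%. Genes named earlier are in each of these shares. The hCG-only count of 1 was 2 with overlapping anchors (8.33% against 9.38%), 2 with gene ends within 10 kb (7.41% against 8.84%), 4 with any part of the gene (14.3% against 9.17%), and 2 to 7 with a library left out (the 7 being 29.2% against 25.7%). The difference in genes with a loop per library was 0.0 with the FDR limit and with gene ends within 10 kb, 2.5 without the genes named earlier, and -3.0 to 2.0 with a library left out. The loops per 1000 differed by 0.261 without the genes named earlier, and the span by -12.5 kb in 5 kb bins. Loops called changed in strength numbered 3 with the bottom left expectation and 0 to 12 with a library left out. The Cd34 strength was -0.03 with the bottom left expectation, -0.07 without PMSG replicate 1 and -0.02 without hCG replicate 1, with a range of -0.07 to 0.21 over the libraries left out. The Ramp2 strength was 0.11 without PMSG replicate 2 and 0.07 without hCG replicate 2 (range -0.31 to 0.11), the Lmo2 strength 0.11 and 0.08 (range -0.36 to 0.11), and the Cdh5 strength -0.18 without hCG replicate 1 (range -0.18 to 0.41). The cause of these shifts was not tested. Deviations of same-numbered libraries had a correlation of -0.00842 over the 1366 loops fitted. Counting noise in pixels of few contacts can hide a shared preparation, so whether the numbers pair the libraries is not settled. With the replicate block edgeR called 0 loops, and the per-library differences stayed at -0.5 genes (exact permutation test, p = 1.0) and -0.352 per 1000 (p = 1.0). The median pixel held 32 to 36 contacts, so a loop missing from a list can be one that fell short of the caller's limits.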
